A study of Mus musculus with 14 samples.

Results

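Snap25, Stx1a, Vamp1, Vamp2, Cplx1, Cplx2, Syn1 and Syn2 encode core proteins of neurotransmitter release. These 8 genes were chosen by name, with earlier results of these data known, out of 43629 gene identifiers per count table. All 8 passed the filter on low counts and were among the 15959 genes tested. Their transcripts were measured by RNA-seq in primary hippocampal cultures of wild-type C57BL6 mice, made from pups aged 0 to 1 days and grown to day 14 in vitro in medium with 2% B27 supplement. The control group (CTRL, 4 libraries) received 0.1% DMSO, the solvent, for 15 h, and the picrotoxin group (PTX, 4 libraries) received 100 µM picrotoxin for 15 h. By blocking chloride channels gated by the transmitter GABA, picrotoxin removes fast inhibition, and neurons fire more. A second assay, ChIP-seq with an antibody against the chromatin reader L3mbtl1, used hippocampus of C57BL6/129 mice of postnatal day 7 to 8, with 3 wild-type and 3 L3mbtl1-/- samples and 1 peak list for all of them. No source used here says whether libraries came from separate cultures, so p-values measure the spread between these libraries only. Cultures hold neurons and glia together, and in such bulk samples fewer cells of a type and less RNA per cell cannot be told apart.

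Synaptic vesicles fuse with the presynaptic membrane when a vesicle SNARE (Vamp1 or Vamp2, the synaptobrevins) zips into a bundle with the plasma membrane SNAREs Snap25 and Stx1a (syntaxin). Complexins (Cplx1, Cplx2) bind the assembled bundle, hold back spontaneous fusion and help calcium-triggered fusion. Synapsins (Syn1, Syn2) coat vesicles and tether them in the reserve pool, from which phosphorylation during activity releases them.

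The libraries held 14524916 to 19498189 gene counts, and the 8 genes had between 201 counts (Vamp1 in PTX replicate 3) and 22376 counts (Snap25 in PTX replicate 2) per library. Counting error alone at those extremes is 7.05% and 0.669% of the value. Picrotoxin changed the transcript set broadly, with 39.2% of all tested genes past the test (edgeR, adjusted p under 0.05), 19.0% higher and 20.1% lower in PTX. The activity-response genes Fos (24.7 ± 8.86 to 326.3 ± 39.8 CPM, read counts scaled to a common library size, SD, n = 4 each) and Arc (10.2 ± 3.76 to 138.4 ± 31.6 CPM) rose, and L3mbtl1 fell from 9.97 ± 0.97 to 2.92 ± 1.83 CPM (edgeR adjusted p = 0.00249).

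Of the 8 genes, Snap25 and Vamp2 rose and Cplx2 and Syn2 fell under picrotoxin, while Stx1a, Vamp1, Cplx1 and Syn1 did not pass the test. The 4 called genes are 50.0% of the 8, to be read against the 39.2% of all tested genes. The CPM ranges of the CTRL and PTX libraries did not overlap for the same 4 genes, as for 38.0% of all tested genes. Libraries of the same replicate number varied together, so a fit with the replicate number as a block was read beside the first. With the block Vamp1 and Cplx1 fell too, giving 2 higher and 4 lower (75.0%) against 55.3% of all tested genes (25.7% higher and 29.6% lower). The median log2 fold change of the 8 genes was -0.20, against -0.033 over all tested genes.

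**Figure D1:**
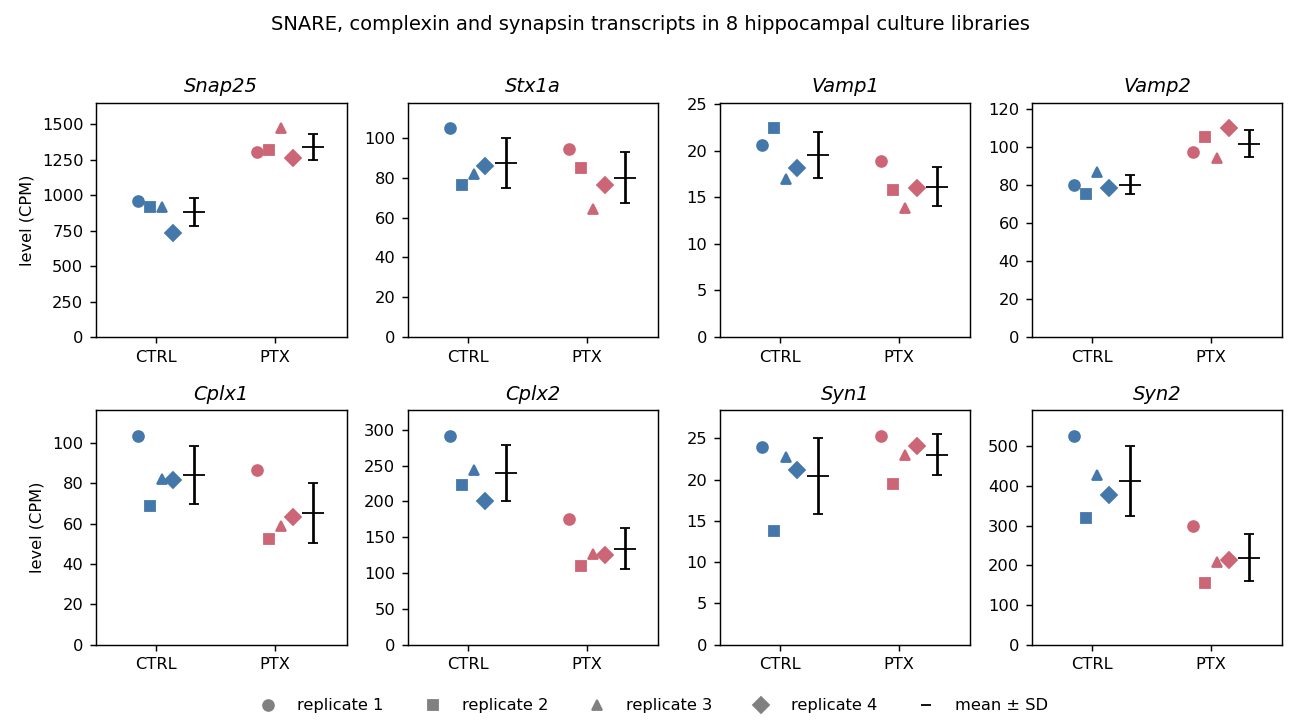
Level of each of the 8 transcripts (y axis, CPM from 0, a separate scale per gene) in each of the 4 CTRL and 4 PTX libraries, with marker shapes for replicate numbers and the mean ± SD beside them. Snap25 and Vamp2 lie higher in every PTX library than in any CTRL library, and Cplx2 and Syn2 lie lower.

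Snap25, the plasma membrane SNARE that brings more than 1 helix to the bundle, rose. Its level was 957.6, 914.7, 915.4 and 734.9 CPM in CTRL replicates 1 to 4 and 1305, 1320, 1476 and 1266 CPM in PTX replicates 1 to 4. All PTX libraries were above all CTRL libraries. The means were 880.6 ± 99.2 and 1341 ± 92.3 CPM (SD, n = 4), a 1.52-fold rise (log2 fold change 0.61, SE 0.10, edgeR adjusted p = 0.00113) seen in 4 of 4 same-numbered pairs. For its partner Stx1a, CTRL replicates 1 to 4 gave 105, 76.6, 81.9 and 86.0 CPM, and PTX replicates 1 to 4 gave 94.3, 84.9, 64.0 and 76.5 CPM. The ranges overlapped and the replicates numbered 1 were highest in both groups. In the test for Stx1a log2 fold change, the gene did not pass (log2 fold change -0.13, 95% confidence interval -0.43 to 0.17, edgeR adjusted p = 0.5), and its sign turned without CTRL replicate 1 (0.023) or PTX replicate 3 (0.026).

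Of the vesicle SNAREs, Vamp2 rose and Vamp1 was lower in PTX only as far as the paired fit shows. Vamp2, the main vesicle SNARE of forebrain synapses, had 79.8, 75.2, 87.0 and 78.7 CPM in the 4 CTRL libraries and 97.2, 105.6, 94.4 and 110.1 CPM in the 4 PTX libraries, in replicate order. The lowest PTX library was above the highest CTRL library. The means of Vamp2 were 80.2 ± 4.96 and 101.8 ± 7.28 CPM (SD, n = 4), a 1.27-fold rise (log2 fold change 0.34, SE 0.08, edgeR adjusted p = 0.0078). Vamp1, a close relative used chiefly in spinal cord, brainstem and neuromuscular synapses, had 20.6, 22.4, 16.9 and 18.1 CPM in the CTRL libraries and 18.9, 15.8, 13.9 and 15.96 CPM in the PTX libraries. The groups overlapped, but each PTX library was below the CTRL library of its number. Vamp1 did not pass without pairing (log2 fold change -0.27, 95% confidence interval -0.56 to 0.01, edgeR adjusted p = 0.122) and fell 1.21-fold with the replicate block (edgeR adjusted p = 0.0237).

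Both complexin transcripts were lower in every PTX library than in the CTRL library of the same number. For Cplx2 the CTRL libraries gave 292.2, 222.5, 243.6 and 201.4 CPM and the PTX libraries 175.3, 109.8, 126.6 and 124.6 CPM. The groups did not overlap, and the means of 239.9 ± 38.9 and 134.1 ± 28.5 CPM (SD, n = 4) give a 1.79-fold fall (log2 fold change -0.84, SE 0.16, edgeR adjusted p = 0.00218). For Cplx1 they gave 103.7, 68.7, 81.9 and 81.7 CPM in CTRL, against 86.4, 52.3, 58.9 and 63.5 CPM in PTX. The ranges overlapped because PTX replicate 1 was above 3 of the CTRL libraries. Without pairing Cplx1 did not pass (log2 fold change -0.36, SE 0.17, edgeR adjusted p = 0.116). With the replicate block it fell 1.29-fold (-0.37, SE 0.07, edgeR adjusted p = 0.000338). Leaving out PTX replicate 1 gave a fall as well (-0.48, edgeR adjusted p = 0.0206), as did leaving out both libraries numbered 1 (-0.37, edgeR adjusted p = 0.0269).

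Syn2 fell and Syn1 did not pass the test. Across replicates 1 to 4, Syn2 had 526.9, 320, 427 and 377.8 CPM under DMSO and 298.4, 155.8, 207.2 and 214.0 CPM under picrotoxin. The highest PTX library, replicate 1, stayed below the lowest CTRL library, replicate 2. The means were 412.9 ± 87.7 and 218.9 ± 59.1 CPM (SD, n = 4), a 1.89-fold fall (log2 fold change -0.92, SE 0.20, edgeR adjusted p = 0.00518). Syn1, a synapsin of nearly all presynaptic terminals, had 24.0, 13.7, 22.7 and 21.2 CPM under DMSO and 25.3, 19.5, 23.0 and 24.1 CPM under picrotoxin. The groups overlapped, with CTRL replicate 2 the lowest library, although each PTX library was above the CTRL library of its number. Syn1 did not pass the test with or without the block (log2 fold change 0.17, 95% confidence interval -0.20 to 0.55, edgeR adjusted p = 0.46, and 0.104 with the block). Syn1 and Syn2 host other genes within their spans. Timp1, inside Syn1, rose from 3.09 ± 1.01 to 9.04 ± 1.43 CPM, Araf, whose end overlaps that of Syn1, fell from 115.1 ± 13.2 to 84.8 ± 10.9 CPM, and Timp4, inside Syn2, rose from 14.6 ± 1.51 to 21.0 ± 2.42 CPM (edgeR adjusted p = 0.000693, 0.0126 and 0.00521). These 3 genes are named for their position, and the strand setting of the counting is not given in the sources used here.

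**Figure D2:**
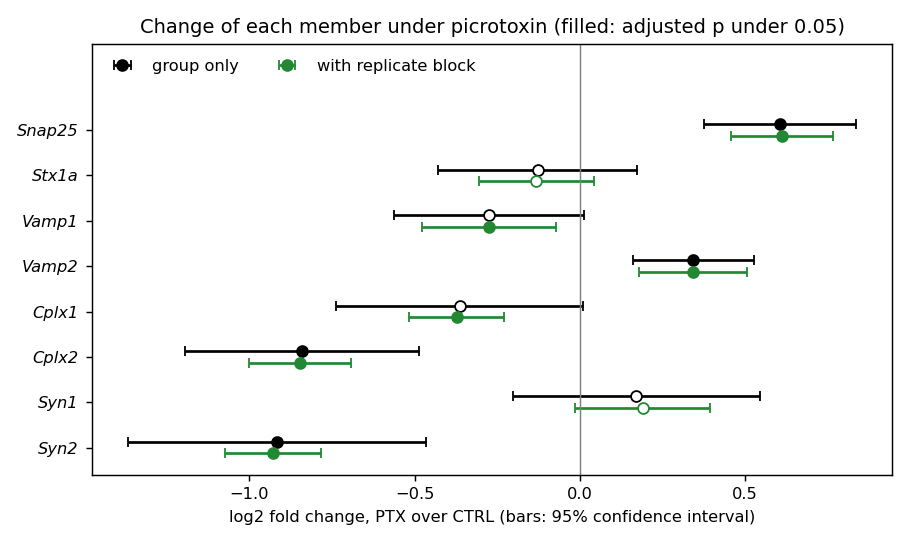
Log2 fold change of PTX over CTRL (x axis) for each of the 8 genes with its 95% confidence interval, from the fit with group only (black) and with the replicate block (green), filled where the adjusted p is under 0.05. The block leaves the estimates in place and narrows the intervals most for Cplx1, Cplx2 and Syn2.

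To test whether paralogs moved differently, the log2 ratio of their counts was taken in each library, where the library scaling cancels. The 3 pairs among the 8 genes differed by a 2-sided exact permutation test over the 8 libraries, each with p = 0.0286. That is the smallest that 4 against 4 libraries can give (0.0381 adjusted over the 4 pairs tested). The permutation does not use the replicate numbers. Exact sign flips of same-numbered libraries gave an adjusted p of 0.167 for each of the 3, and cannot go below 0.125 unadjusted. The Syn1 to Syn2 log2 ratio was -4.45, -4.54, -4.23 and -4.16 in CTRL and -3.56, -2.99, -3.17 and -3.15 in PTX. It rose by 1.13 (SE 0.15), a 2.19-fold shift towards Syn1, with no overlap between groups. The Cplx1 to Cplx2 log2 ratio was -1.49, -1.69, -1.57 and -1.30 in CTRL and -1.02, -1.07, -1.10 and -0.97 in PTX, a rise of 0.47 (SE 0.09), so Cplx2 lost more of its level than Cplx1. The Vamp1 to Vamp2 log2 ratio was -1.95, -1.74, -2.36 and -2.12 in CTRL and -2.36, -2.74, -2.76 and -2.78 in PTX, a fall by 0.62 (SE 0.16). Here CTRL replicate 3 and PTX replicate 1 touched. With a pseudocount of 5 instead of 0.5 all 3 pairs missed the threshold, with exact permutation p adjusted over the pairs of 0.0762 for Vamp1 to Vamp2 and 0.0571 for each of the other pairs. The other pairs kept their unadjusted p of 0.0286 and changes of 1.13 (Syn1 to Syn2) and 0.48 (Cplx1 to Cplx2). They missed only through the adjustment, since Vamp1 to Vamp2 no longer reached that p. With 1 library left out, each pair missed the threshold in 7 of 8 cases and passed without CTRL replicate 3 (0.0381).

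**Figure D3:**
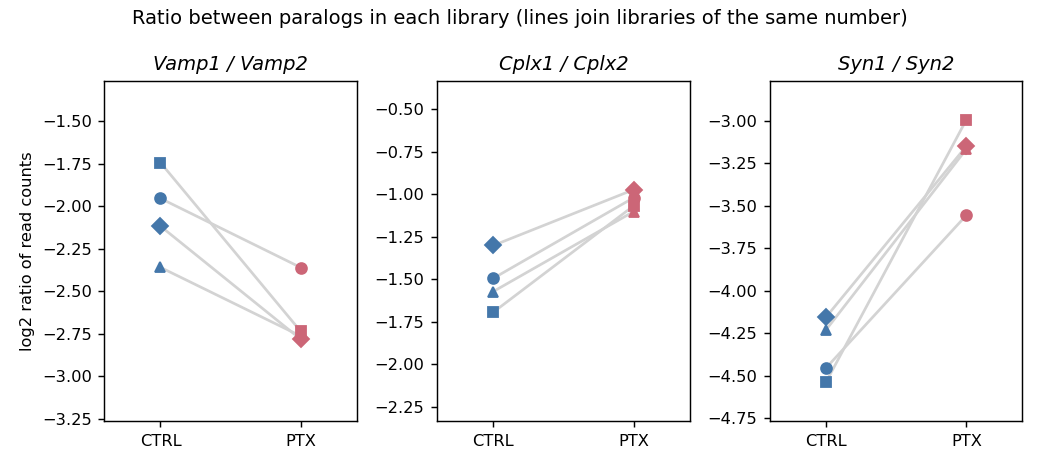
Log2 ratio of read counts between 2 paralogs (y axis, the same span in each panel) in the CTRL and PTX libraries, with grey lines joining libraries of the same number. Syn1 over Syn2 and Cplx1 over Cplx2 rose in all 4 same-numbered pairs, and Vamp1 over Vamp2 fell in all 4.

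The promoters of Syn1 and Syn2 are printed because these paralogs responded unequally, and that of Stx1a because it held a motif match. RefSeq promoter entries (GRCm38.p6, the assembly of mm10) matched 6 of the 8 genes, without Snap25 and Vamp2. Each run gives the 250 bases before the annotated start, 5′ to 3′ in gene orientation, with matches to the motifs searched in capitals. Syn1 is at chrX:20920919-20921168, minus strand, Syn2 at chr6:115134652-115134901, plus strand and Stx1a at chr5:135023232-135023481, plus strand. The Cplx2 entry, whose start lies 592 bp inside the gene's span, and a second Syn2 entry inside that gene were searched but are not shown.
Syn1: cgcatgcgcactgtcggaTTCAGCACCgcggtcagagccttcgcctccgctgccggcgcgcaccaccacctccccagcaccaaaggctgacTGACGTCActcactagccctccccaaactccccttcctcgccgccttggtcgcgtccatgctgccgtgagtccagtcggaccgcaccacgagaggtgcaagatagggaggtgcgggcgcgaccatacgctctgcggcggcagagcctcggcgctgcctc
Syn2: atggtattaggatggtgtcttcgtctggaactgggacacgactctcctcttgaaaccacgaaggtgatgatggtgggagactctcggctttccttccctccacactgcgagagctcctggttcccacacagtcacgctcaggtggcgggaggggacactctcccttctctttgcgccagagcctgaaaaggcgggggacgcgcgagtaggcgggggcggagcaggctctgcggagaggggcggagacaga
Stx1a: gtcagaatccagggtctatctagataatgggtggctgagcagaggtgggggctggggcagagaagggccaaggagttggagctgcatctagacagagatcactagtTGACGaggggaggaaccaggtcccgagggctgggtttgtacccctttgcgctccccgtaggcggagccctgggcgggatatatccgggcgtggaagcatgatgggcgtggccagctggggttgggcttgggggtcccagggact
The motifs were the cAMP response element TGACGTCA, its shorter form TGACG, the AP-1 motif TGANTCA, the Egr motif GCGTGGGCG and TTCAGCACC, the left part of the RE1 site of the neuronal gene repressor REST, each on both strands. Syn1 held TGACGTCA at 159 to 152 bases and TTCAGCACC at 232 to 224 bases before its start. Of 32851 RefSeq promoter entries, 1.55% held the first and 0.301% the second. The shorter TGACG, contained in TGACGTCA, occurred in Syn1 and at 144 to 140 bases before the Stx1a start, and in 17.8% of all entries. TGANTCA (6.75% of all entries) and GCGTGGGCG (0.536%) matched none of the 7 entries of the 6 genes, and the Cplx1, Cplx2, Syn2 and Vamp1 entries held no match to any motif searched.

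Within groups the 8 genes varied to different degrees. The coefficient of variation over the CTRL libraries ran from 6.19% for Vamp2 to 22.5% for Syn1, and over the PTX libraries from 6.88% for Snap25 to 27.0% for Syn2. Cplx1, Cplx2, Syn1, Syn2 and Stx1a were all highest in the library numbered 1 of both groups, by 0.14 to 0.48 on the log2 scale above the group mean. In PTX all of these except Stx1a, which was lowest in replicate 3, were lowest in replicate 2. Snap25 and Vamp2 were not highest in both, with deviations of -0.038 and -0.064 in PTX replicate 1. Both libraries numbered 1 stood apart from the other 6 on the second principal component of all genes, which held 20.5% of the variance.

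**Figure D4:**
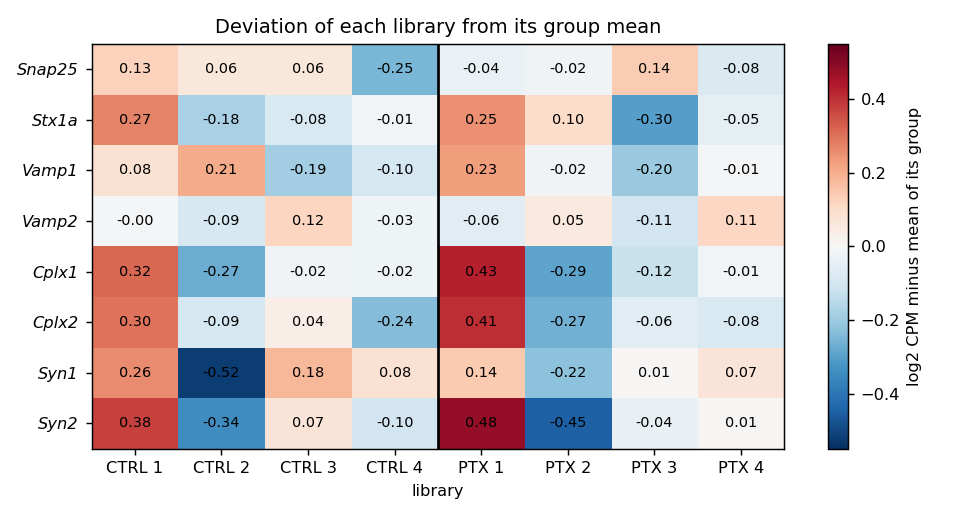
Deviation of each library (columns) from the mean of its own group, in log2 CPM, for each of the 8 genes (rows), red above and blue below the mean. Cplx1, Cplx2, Syn1, Syn2 and Stx1a are highest in CTRL replicate 1 and PTX replicate 1, and all of these but Stx1a are lowest of the PTX libraries in replicate 2.

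Among all 14698 other genes with a symbol and a mean of at least 1 CPM, the gene with the highest Pearson correlation of log2 CPM over the 8 libraries was Unc5d for Syn2 (r = 0.998), Snrpn for Cplx2 (0.996), Ormdl1 for Snap25 (0.995), Parm1 for Cplx1 (0.992), Sos1 for Syn1 (0.989), Atg4a for Vamp2 (0.968), Igbp1b for Stx1a (0.936) and Gpr6 for Vamp1 (0.934). These values are the extremes of many, share the group difference and the replicate pairs, and carry no test.

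Of 14 other listed SNAREs of the plasma membrane and of secretory vesicles, 10 were tested, of which 4 rose and 1 fell (median log2 fold change 0.051). The 50% called is near the 39.2% of all tested genes. This list and those that follow were chosen with earlier results of these data known. Vamp4, a SNARE of the trans-Golgi and of slow vesicle recycling, rose 1.73-fold, with means of 96.0 ± 6.77 and 165.8 ± 9.54 CPM (SD, n = 4, edgeR adjusted p = 5.07e-05). Stx4a (1.57-fold) and Stx3 (1.46-fold), syntaxins of postsynaptic and non-synaptic exocytosis, rose, and Stx11 was the other rise, from 0.72 ± 0.33 to 1.46 ± 0.40 CPM, a call that was lost under 8 of its 16 alternatives. Stx2 fell 1.48-fold. The remaining synapsin, Syn3, had means of 13.1 ± 1.77 and 13.3 ± 5.96 CPM (SD, n = 4, edgeR adjusted p = 0.956), with PTX replicate 2 the highest at 21.8 CPM. Cplx3 and Cplx4, the retinal complexins, had 62 and 5 counts over all 8 libraries and were not tested.

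Of 20 tested SNARE regulators, 11 fell and 0 rose by edgeR (15 and 0 with the block, 10 and 0 by DESeq2), with a median log2 fold change of -0.46. Over all tested genes 20.1% fell and 19.0% rose (29.6% and 25.7% with the block). With the block and without both libraries numbered 1, 15 fell and 1 rose. Doc2b, a calcium sensor for spontaneous release, fell 2.7-fold, with means of 19.1 ± 2.17 and 7.06 ± 1.62 CPM (SD, n = 4, edgeR adjusted p = 0.000124), and Doc2a fell 1.72-fold. Stxbp6 (amisyn) fell 2.37-fold and Stxbp5l (a tomosyn) 1.68-fold, and both encode proteins that bind plasma membrane SNAREs without fusing vesicles. Sept5, encoding a septin that binds syntaxin, fell 1.5-fold. The count of falls was 7 without CTRL replicate 1, 6 without PTX replicate 3 and 7 without PTX replicate 4.

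Most vesicle proteins and recycling proteins that changed were lower too. Of 17 vesicle proteins, 10 fell and 1 rose (13 and 3 with the block, median log2 fold change -0.37), so 64.7% were called beside 39.2% of all tested genes (55.3% with the block). Rab3d (2.43-fold) and Rab3a (1.68-fold), small GTPases of docking, Tprgl (2.33-fold) and the tetraspan protein gene Syngr1 (1.95-fold) fell. Sv2c, a vesicle transporter-like protein gene, rose 2.85-fold, with means of 16.9 ± 1.64 and 48.2 ± 5.59 CPM (SD, n = 4, edgeR adjusted p = 7.06e-06). Of 16 recycling genes, 8 fell and 3 rose (Sh3gl1, Picalm and Itsn2, median log2 fold change -0.29), so 68.8% were called beside the same 39.2%. Sh3gl3, an endophilin gene, fell 2.78-fold, Dnajc6 (auxilin, which uncoats clathrin vesicles) 2.31-fold, Pacsin1 2.17-fold, Amph (amphiphysin) 1.92-fold and Dnm1 (dynamin) 1.78-fold. Of 17 SNAREs of the Golgi, endosomes and endoplasmic reticulum, 4 (23.5%) were called, beside 39.2% of all tested genes, and the difference of these shares was not tested. Of these, Vti1b (1.41-fold), Bet1l (1.31-fold) and Gosr2 (1.2-fold) rose, and Stx17 fell 1.39-fold. The Bet1l call was lost under 7 of its 16 alternatives and the Gosr2 call under 4 of 16. Sec22b, the next by p, had 60.0 ± 4.89 and 69.8 ± 2.11 CPM (SD, n = 4, edgeR adjusted p = 0.0526). Without a filter on low counts 2 of the 17 were called, as without CTRL replicate 3, CTRL replicate 4 or PTX replicate 2.

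**Figure D5:**
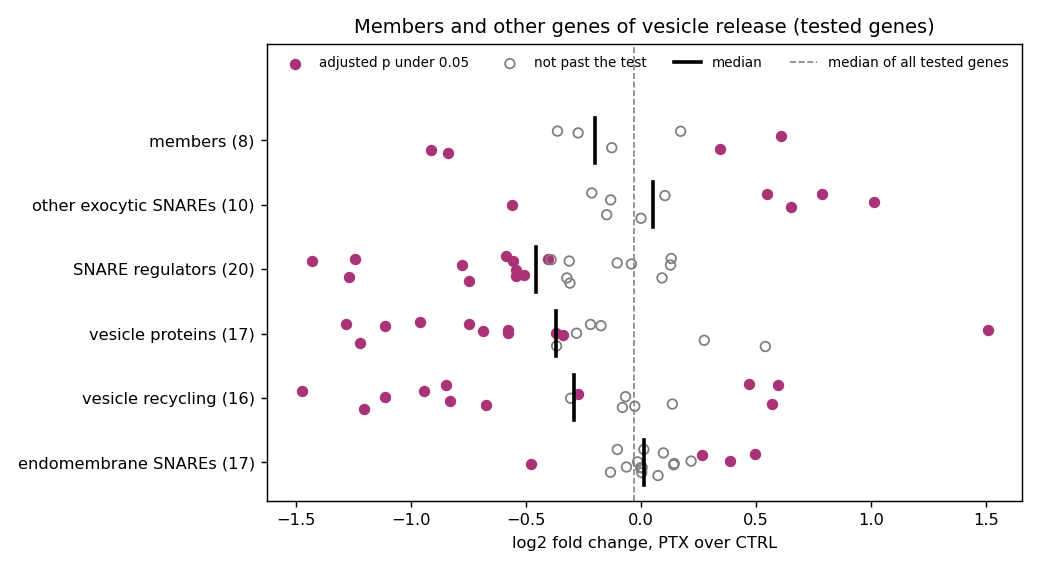
Log2 fold change of PTX over CTRL (x axis) for the 8 genes and for tested genes of 5 lists (rows, number of genes in brackets), filled where the adjusted p is under 0.05, with the median of each row (bar) and of all tested genes (dashed line). The medians of SNARE regulators (-0.46), vesicle proteins (-0.37) and recycling genes (-0.29) lie below that of all genes (-0.033).

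Markers of the cells in the cultures moved as well, and their part in these results was not tested. Their counts are to be read against the 39.2% of all tested genes called, 19.0% higher and 20.1% lower. Of 9 general neuron markers, 4 rose, among them the neurofilament genes Nefm (16.3-fold) and Nefl (10.4-fold), and Rbfox3 fell. The summed level of the 9 was 3226 to 4505 CPM in CTRL and 6230 to 9041 CPM in PTX. Most of that rise came from Nefl (means 319.3 and 3318 CPM) and Map2 (means 2034 and 3018 CPM). Tubb3, Elavl3 and Stmn2 had lower means in PTX and Elavl4 a higher one, and none of these passed without the block. Of 7 excitatory markers, 5 fell, among them Camk2a (2.18-fold), and Slc17a6 rose 12.7-fold, with means of 39.4 and 501.2 CPM. The higher sum of the 7 in PTX (458.5 to 589.6 in CTRL and 651.2 to 818.5 CPM in PTX) came from Slc17a6 alone, against the 5 falls. Of 9 inhibitory markers, 4 rose, among them Gad2 (1.84-fold), and 2 fell, among them Dlx1 (sums 543.5 to 711.9 and 959.2 to 1091 CPM). Of 8 astrocyte markers, 4 fell and 0 rose, with Aldoc 2.62-fold and Aqp4 2.42-fold lower (sums 6198 to 8378 and 4519 to 6246 CPM). Microglia (6 tested), oligodendrocyte lineage (7) and meningeal fibroblast markers (7) gave 0 calls by edgeR, by DESeq2 and at an unadjusted p under 0.05. With the replicate block 2, 4 and 4 of them were called, to be read against the 55.3% of all tested genes called with the block. Among those called, P2ry12, Cnp and Olig2 were higher and Ogn and Slc6a13 lower. Aif1 did not pass (edgeR adjusted p = 0.129 with the block). Of 5 endothelial and mural markers Flt1 rose 2.76-fold at a low level, from 1.09 ± 0.26 to 3.03 ± 1.11 CPM (SD), with overlapping ranges. Pecam1 had an edgeR adjusted p of 0.104. The libraries numbered 1 (CTRL, then PTX) stood apart from all others in the summed levels of 4 marker lists. Their sums were low for microglia (11.6 and 15.4 against 46.0 to 124.4 CPM in the others) and the oligodendrocyte lineage (227.4 and 253.6 against 365.4 to 526.7 CPM). The sum of endothelial and mural markers was low too (37.9 and 41.9 against 66.1 to 81.1 CPM), through Kdr (16.27 and 16.91 against 37.02 to 51.98 CPM) and Pdgfrb. Pecam1 (3.07 and 3.89 CPM) and Flt1 (1.47 and 3.89 CPM) were instead highest of their groups there, and Rgs5 was neither highest nor lowest. The untested endothelial marker Cdh5 had 59 and 43 counts against 1 to 5, and the untested microglia marker Tmem119 had 44 and 41 against 1 to 9. The libraries numbered 1 were high for fibroblast markers (417.1 and 339 against 108 to 218.9 CPM). Ogn went the other way, with 73.9 against 103.8 to 194.8 CPM in CTRL and 53.1 against 76.5 to 113.8 CPM in PTX. All other listed fibroblast markers were highest in the libraries numbered 1.

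None of the 8 genes lay near an L3mbtl1 peak. No peak of the 4677 in the list overlapped the windows of 2000 bp on each side of either gene end, against 26.4% of tested protein-coding genes (3612 of 13662), and no peak lay inside any of the 8 genes. Over all protein-coding genes with a position the share was 17.8%. It was 15.1% with windows of 500 bp, 19.7% with 5000 bp, 10.2% with the higher-scoring part of the list and 17.7% with an overlap of at least 100 bp, and none of the 8 genes had a peak under these settings. The nearest peaks were 16.7 kb from Vamp2 (chromosome 11, 69088528 to 69092381), 23.5 kb from Vamp1 (chromosome 6, 125215581 to 125222306) and 33.4 kb from Snap25 (chromosome 2, 136713439 to 136782428). For Cplx2 (chromosome 13, 54301964 to 54383923) the distance was 84.5 kb, for Stx1a (chromosome 5, 135023482 to 135051100) 97.6 kb and for Cplx1 (chromosome 5, 108518554 to 108550027) 149 kb. For Syn2 (chromosome 6, 115134902 to 115282626) it was 165 kb and for Syn1 (chromosome X, 20860511 to 20920918) 243 kb. The median distance over tested protein-coding genes was 53.3 kb. The list holds reproducible peaks only, so weaker binding at these genes would not appear in it.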

How the data were processed

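The authors deposited 1 table of raw counts per RNA-seq library, by Ensembl gene. Libraries were made with ScriptSeq v2 after removal of ribosomal RNA, per the labels' protocols. The submitters' processing notes name, without roles, HTSeq 0.6.1, TopHat2 2.0.9, Bowtie2 2.2.4, CASAVA 1.8 and build mm10. The ChIP-seq list of 4677 peaks has a score for each peak, the authors' deposited value, used to rank peaks. For its caller, threshold and use of the knockout, nothing is stated in the sources used here.

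Groups and replicate numbers came from sample titles. Gene symbols and positions (RefSeq, GRCm38.p6) were matched by identifier and symbol. The 5 summary lines per table were left out; between 19.9% and 26.8% of alignments lay in no gene. PTX and CTRL were compared with edgeR 4.0.16 in R 4.3.3 (TMM, filterByExpr, quasi-likelihood F test, group as the only term, Benjamini-Hochberg over 15959 genes, call under 0.05). CPM used TMM-scaled library sizes, SE is the log2 fold change over the square root of F, and intervals are at 95%. Same-numbered CTRL and PTX libraries deviated together from their group means (r = 0.79, 0.58, 0.17 and 0.65 for numbers 1 to 4), so the replicate block is printed where it changes a call. Libraries of different numbers gave r of -0.53 to 0.22. CTRL replicate 3 correlated more with PTX replicates 4 (0.22) and 2 (0.19) than with PTX replicate 3. The pairing comes from the data, since the labels do not say what a number marks. No library was a copy of another (smallest chi-square per degree of freedom within a group 9.45). The 8 genes and all lists were chosen with earlier results of these data known. Named beside the 8 genes are the 5 genes of smallest p in each pathway list, the 2 in each marker list, Fos, Arc, L3mbtl1 and the most correlated genes. DESeq2 1.42.0, other scalings and filters, and left-out libraries were alternatives. Overlapping genes, and list members named beside a small count, were named after their values were seen. Paralog ratios were tested by exact permutation with p adjusted over 4 pairs, of which 1 is not reported here.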

Additional observations from a re-analysis of the deposited data

Results flagged for a closer look

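The Vamp1 to Vamp2 log2 ratio in PTX replicate 1 was -2.36, apart from -2.74 to -2.78 in the other PTX libraries, by more than the 95% limit for a group of 4. Of 24 groups of 4 values examined, this was the 1 set apart, and chance alone sets apart about 1 in 20.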

How the results depend on the processing

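The calls of Snap25, Vamp2, Cplx2 and Syn2 kept their direction and side of the threshold under all 16 alternatives, with edgeR or DESeq2 adjusted p of at most 0.00462, 0.0245, 0.0172 and 0.0321. Over all genes, calls numbered 6558 with DESeq2, 8820 with the replicate block and 5119 to 6229 with 1 library left out, and 4 to 6 of the 8 genes were called. Vamp1 passed with the replicate block (-0.28, adjusted p = 0.0237), and with the block without both libraries numbered 1 (-0.29), an alternative chosen after seeing the data. Cplx1 passed with the block (-0.37), without both libraries numbered 1 (-0.37) and with both (-0.37), and ran from -0.48 to -0.19 with 1 library left out. The block changed no other call of the 8 genes. Stx1a ran from -0.19 to 0.026 with 1 library left out.

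Called SNARE regulators ran from 6 to 12 and endomembrane SNAREs from 2 to 5 with 1 library left out, and without a filter on low counts 2 endomembrane SNAREs were called. Exact tests of the paralog ratios are bound by their size: sign flips of 4 pairs cannot go below p = 0.125, nor permutations of 3 against 3 libraries below p = 0.1. The changes of log2 ratio were -0.62, 0.47 and 1.13 when paired, -0.69, 0.47 and 1.20 without both libraries numbered 1, and -0.61, 0.48 and 1.13 with a pseudocount of 5, for Vamp1 to Vamp2, Cplx1 to Cplx2 and Syn1 to Syn2. With 1 library left out they ran from -0.72 to -0.52, 0.42 to 0.55 and 1.05 to 1.24. Each pair missed the threshold in 7 of 8 cases (exact permutation adjusted p = 0.0571 to 0.0762). With a pseudocount of 5 all 3 missed the threshold (exact permutation adjusted p = 0.0762, 0.0571 and 0.0571). The value 0.0571 arose only for Cplx1 to Cplx2 and Syn1 to Syn2. Their unadjusted exact permutation p was then 0.0286, the smallest possible for 3 against 4 and for 4 against 4 libraries. They missed the threshold because Vamp1 to Vamp2 did not reach that p, which raised the adjusted values. Syn3 turned to -0.013 with upper-quartile scaling, -0.037 with the block, and ran from -0.33 to 0.25 with 1 library left out. Slc6a13 ran from -2.58 to 1.01 and Sos1 from -0.00060 to 0.19 with 1 library left out. Of 847 values of other named genes, 792 kept direction and side. The cause of these shifts was not tested. No window, overlap or score limit tried put a peak near the 8 genes.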

Other observations

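The 250 bases before the start were richer in G and C for Syn1 (68%) than for the printed Syn2 entry (61.2%). They were also richer for Cplx1 (64.8%) than for the Cplx2 entry inside its gene (50.8%). The median over all 32851 promoter entries was 52.4%. Stx1a had 62%, Vamp1 50.4% and the second Syn2 entry, inside that gene, 50.4%. These values describe 6 genes and carry no test.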
